A study of Mus musculus with 6 samples.

Results

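The cytosolic ribosomal protein genes encode the proteins of the small (40S) and large (60S) subunits of the ribosome that translates nuclear-encoded mRNAs. They were taken by name, as every protein-coding mouse gene whose symbol is Rpl or Rps followed by a number, or is Rpsa, Rplp0, Rplp1 or Rplp2, without pseudogenes and without the Rps6k kinases. The deposited values list 85 such genes among 27263. Of these, 31 encode 40S proteins, 46 encode 60S proteins and 7 are paralogs with names such as Rps27l. The remaining match, Rps19bp1, encodes a protein that binds Rps19 and is not itself a ribosomal protein.

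RNA was measured by paired-end sequencing (150 bp reads) in bone marrow mesenchymal stromal cells of C57BL/6 mice, sorted from tibia and femur as Sca-1+, CD29+, CD45- and CD11b- cells and grown in α-MEM with 10% serum. In the GCA group the cells received rGCA, taken from knowledge of the study rather than the labels as recombinant grancalcin, a calcium-binding protein of the penta-EF-hand family, at 50 nM for 3 days. The PBS group received PBS, the vehicle, for the same time. Each group has 3 libraries of total RNA. Whether the 3 libraries of a group stem from different mice or wells is not stated in the labels, and every p-value therefore covers the spread among libraries only, which may be technical.

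Ribosomal proteins are made in nearly equal numbers and assemble with ribosomal RNA in the nucleolus, and their mRNAs are among the most abundant of a growing cell. Most of these mRNAs start with a C followed by a run of pyrimidines, the 5′ terminal oligopyrimidine (TOP) sequence, through which Larp1 and the kinase complex mTORC1 control their translation. When subunit assembly is disturbed, unassembled Rpl5, Rpl11 and Rpl23 bind Mdm2 and stabilise p53. In bone marrow, lowered dosage of single ribosomal proteins is known in people from Diamond-Blackfan anaemia.

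The start sites of 5 genes that were lower with GCA (Rps15a, Rpl34, Rpl26, Rpl5 and Rpl23), of Rps6, the target of the S6 kinases, and of Rpl41 show how far the annotated starts carry such runs. Each stretch holds 60 bases before and 15 bases from the annotated start (RefSeq, build GRCm38.p6), 5′ to 3′. Capitals mark the longest run of C and T that overlaps the 5 bases either side of the start, where it has at least 8 bases, and the 8-letter motif CCGGAAGT on either strand, the core of ETS-family sites.
Rps6 (chr4:86857353-86857427, minus strand): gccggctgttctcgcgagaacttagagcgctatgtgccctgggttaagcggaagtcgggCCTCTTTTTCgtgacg
Rps15a (chr7:118116133-118116207, minus strand): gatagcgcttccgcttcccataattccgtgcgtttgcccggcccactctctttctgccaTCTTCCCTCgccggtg
Rpl34 (chr3:130730323-130730397, minus strand): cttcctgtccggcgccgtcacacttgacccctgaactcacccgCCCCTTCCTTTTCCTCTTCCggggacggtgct
Rpl26 (chr11:68901506-68901580, plus strand): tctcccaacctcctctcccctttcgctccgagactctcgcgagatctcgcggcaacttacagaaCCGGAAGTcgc
Rpl41 (chr10:128549154-128549228, minus strand): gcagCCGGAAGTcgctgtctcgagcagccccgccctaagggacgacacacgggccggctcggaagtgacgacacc
Rpl5 (chr5:107900468-107900542, plus strand): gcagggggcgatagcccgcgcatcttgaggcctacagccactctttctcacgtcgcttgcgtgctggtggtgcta
Rpl23 (chr11:97782425-97782499, minus strand): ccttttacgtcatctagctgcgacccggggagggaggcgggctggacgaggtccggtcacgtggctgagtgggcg
Rps6 and Rps15a had a run of 10 and 9 pyrimidines across the start, and Rpl34 had one of 20 bases. Rpl26 and Rpl41 held the ETS-family letters and no such run across the start. Rpl5 and Rpl23 held neither the letters nor a run of that length across the start. Runs of C and T farther from the start, as in the Rpl5 stretch, were not counted.

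The RefSeq windows, 250 bases before to 50 bases after each start, covered 65 of the 85 genes. A pyrimidine run of at least 8 bases was found at the start of 24 of them (36.9%), against 10.9% of the 26960 other genes with a window and 10.1% of 69 mitochondrial ribosomal protein genes. A first base C followed by 4 pyrimidines was found in 14 (21.5%), against 2.96% of the other genes. CCGGAAGT was found anywhere in the window of 12 (18.5%), against 17.4% of the mitochondrial ribosomal protein genes, 9.69% of the other genes that were tested and 4.27% of all other genes. It overlapped a run in none of the 77 windows of the cytosolic genes. The matches describe annotated letters; a start annotated a few bases away from the used one hides a run.

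The genes were expressed at very different deposited levels. FPKM (fragments per kilobase of gene model, scaled to the library total) had a median of 162 over the 77 subunit proteins, with quartiles of 90.3 and 263. Rplp1, an acidic protein of the stalk that recruits translation factors, was highest at 1185 ± 27.6 FPKM with GCA and 1313 ± 106 FPKM with PBS (SD, n = 3 each, as below). Rps3a1, Rplp0, Rpl8 and Rps15 followed, and Rps3a1 averaged 661 ± 5.57 FPKM with GCA and 716 ± 39.4 FPKM with PBS.

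The deposited level depends on the length it is divided by. The gene models join all annotated exons, so the model of Rps24 is 6256 bases long while its shortest principal coding mRNA has 468 bases. Rescaled to the mRNA length, Rps24 stood at 978 FPKM in place of 73.2, averaged over the 6 libraries. Over the 66 tested subunit proteins whose values give whole fragments, the upper quartile was 3.07 times the lower one as deposited and 1.90 times on the mRNA length.

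**Figure D1:**
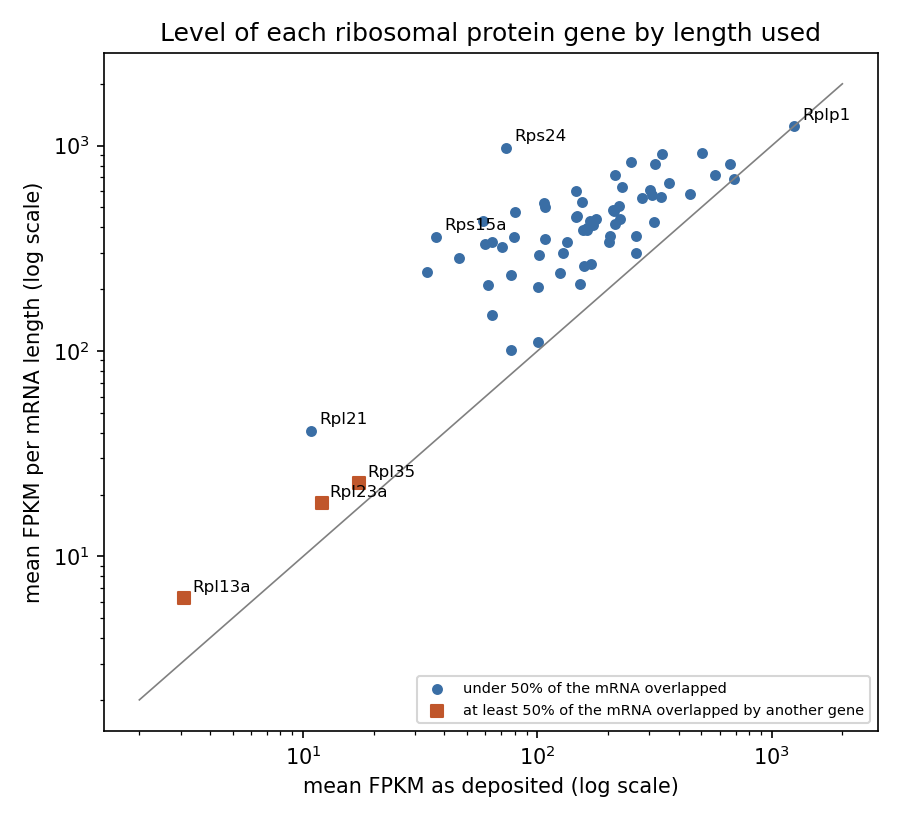
Mean FPKM over the 6 libraries of 66 tested 40S and 60S protein genes as deposited (horizontal axis, log scale) against the same values per length of the shortest principal coding mRNA (vertical axis, log scale); the line marks equal values. Rpl13a, Rpl23a, Rpl35 and Rpl21 lie far below the rest on both axes, and the first 3 of them have at least 50% of their mRNA overlapped by another gene.

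A few members stood far below the rest on either scale. Of the 5 subunit genes with a mean under 20 FPKM, 4 had at least 50% of their coding mRNA overlapped by another annotated gene, against 1 of the other 72. Rpl24 averaged 0.178 ± 0.129 FPKM with GCA and 0.358 ± 0.0605 FPKM with PBS and fell under the filter on low values. Rpl13a averaged 2.62 ± 0.767 FPKM with GCA and 3.56 ± 0.232 FPKM with PBS, Rpl23a 10.8 ± 0.980 FPKM with GCA and 13.1 ± 1.21 FPKM with PBS and Rpl35 16.3 ± 0.198 FPKM with GCA and 18.4 ± 1.77 FPKM with PBS. The fifth, Rpl21, overlapped no gene, and averaged 10.5 ± 0.0709 FPKM with GCA and 11.2 ± 1.32 FPKM with PBS, while 34 near-identical copies elsewhere in the genome summed to 243 FPKM. The exception among the others, Rps10, had 91.6% of its mRNA overlapped and averaged 109 ± 0.969 FPKM with GCA and 118 ± 7.06 FPKM with PBS. These genes, apart from Rpl24 and Rpl13a, were chosen after their values were seen, and reads of such genes can be dropped or split between copies. Their levels are uncertain.

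The libraries are nearly equal in depth, with whole-number totals of 17543509 to 18645932 fragments in the GCA libraries and 17828862 to 18229435 in the PBS libraries, and a median of 5538 fragments per tested ribosomal protein gene and library. The sort gate is not fully reflected in the mRNA. Ptprc, which encodes CD45, had 12.9, 14.5 and 13.0 FPKM with GCA, against 12.6, 13.2 and 12.0 FPKM with PBS, and Itgam, which encodes CD11b, had 24.9, 40.9 and 25.7 FPKM with GCA, against 36.7, 43.1 and 38.1 FPKM with PBS. All 20 macrophage markers were measured above the filter and summed to 18446 to 19587 FPKM with GCA and 20669 to 22999 FPKM with PBS, more than the 18 stromal markers, at 4236 to 4560.1 FPKM with GCA and 4928 to 5302 FPKM with PBS. The lower macrophage sums with GCA do not describe the typical marker: 13 were positive and 7 negative, with a median log2 fold change of 0.075. Of the macrophage markers 9 rose and 1, Lyz2, fell, and of 17 tested stromal markers 1 rose and 5 fell (29.4%). Among all genes tested, 11.5% rose and 6.43% fell. The other blood and vessel lists (neutrophil, erythroid, B cell, T and NK cell, endothelial) summed to at most 32.1 FPKM each in any library. In such bulk samples, fewer cells of a type and less RNA per cell cannot be told apart.

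Ribosomal protein mRNAs were slightly lower with GCA across both subunits. Summed over the 85 genes, their level was 15476, 15522 and 15625 FPKM with GCA, against 15901, 17417 and 17646 FPKM with PBS, a mean of 15541 ± 76.3 FPKM with GCA and 16988 ± 948 FPKM with PBS (SD, n = 3 each). The 3 GCA libraries lay close together and below every PBS library, but PBS library 1 stood nearer to them than to PBS libraries 2 and 3. The mean with GCA was 8.52% lower.

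As a share of all FPKM, the genes made up 4.36% ± 0.208 with GCA and 4.79% ± 0.205 with PBS (SD, n = 3 each), and the shares did not overlap. This share moves with 1 entry, a short microRNA gene model that held 6.41 to 12.2% of FPKM with GCA and 6.55 to 12.3% with PBS. Without that entry the share was 4.82% ± 0.0734 with GCA and 5.26% ± 0.202 with PBS. The subunits kept their proportion: the summed level of 60S genes over that of 40S genes was 1.42 ± 0.0025 with GCA and 1.42 ± 0.0043 with PBS.

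**Figure D2:**
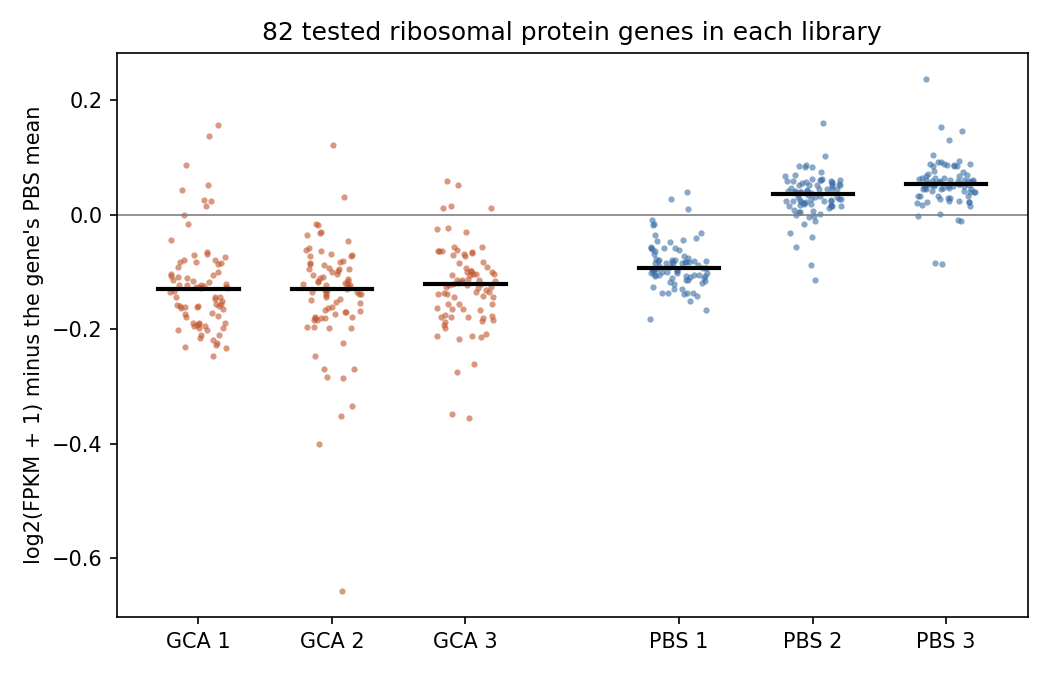
Log2(FPKM + 1) of each of the 82 tested ribosomal protein genes in each library (points), as the difference from that gene's mean over the PBS libraries (vertical axis); bars are medians over genes. The medians are -0.13, -0.13 and -0.12 in the GCA libraries, and -0.092, 0.036 and 0.054 in PBS libraries 1, 2 and 3.

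The shift ran through nearly all of the genes. Of the 82 genes that averaged 1 FPKM or more, 79 had a negative log2 fold change on the log2(FPKM + 1) scale, with a median of -0.13, against 5803 of all 11984 genes tested and a median of 0.0056. In untransformed FPKM the median gene was 8.88% lower. The fold changes of the members had an SD of 0.068 among themselves, next to a median SE of 0.056 for a single gene. That SE also holds differences between libraries that the members share, so it cannot tell how far the members differ from one another. The median was -0.13 for the 31 genes of the 40S subunit, all of them negative, and -0.13 for the 45 tested genes of the 60S subunit, 43 of them negative.

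Tested with limma across all 11984 genes at a Benjamini-Hochberg adjusted p under 0.05, 11 of the 82 genes fell (13.4%) and none rose. Of all genes tested, 6.43% (771) were called lower and 11.5% (1380) higher; after quantile normalization the split was 1027 lower and 1198 higher. In 43 of the 82 all 3 GCA values lay below all 3 PBS values and in 1, Rpl41, all lay above, where 16.8% and 21.6% of all genes did so. The 58 members with a mean of at least 100 FPKM were set beside the 380 other genes at that level. Of the 58, 12.1% were called lower, and of the 380, 15.8%; 40% of the 380 were called in either direction. The shares with a negative log2 fold change were 96.6% of the members and 44.7% of the others, with medians of -0.13 and 0.023.

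The count rests on single libraries. PBS library 1 was the lowest PBS library for 75 of the 82 genes, against 35.6% of all genes. Without it 34 members fell, the 11 among them, against a background of 4.15%, and the median was -0.17. Without PBS library 2 or without PBS library 3 none of the 82 passed, with medians of -0.11 and -0.10. Calls were also fewer over all genes, with 414 and 384 lower in these fits, against 771 with all libraries. Leaving out GCA library 1, 2 or 3 left 2, 5 and 1 members called, where 436, 768 and 589 of all genes tested were lower. The largest adjusted p of each of the 11 over the 6 left-out libraries lay between 0.0968 (Rps28) and 0.159 (Rpl8). Quantile normalization gave 27, all lower and the 11 among them, against a background of 8.57%. Scaling to the FPKM outside these genes left 1 called, limma without trend and robust moderation left 3, and no filter on low values left none. Over all genes, 535, 710 and 340 were lower in these 3 fits. The direction of the members stayed the same, with medians of -0.14, -0.13 and -0.13. PBS library 1 also differed in cell type markers: the median deviation from the PBS mean was -0.093 for the macrophage markers and 0.11 for the stromal markers. The part of these in the result was not tested.

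**Figure D3:**
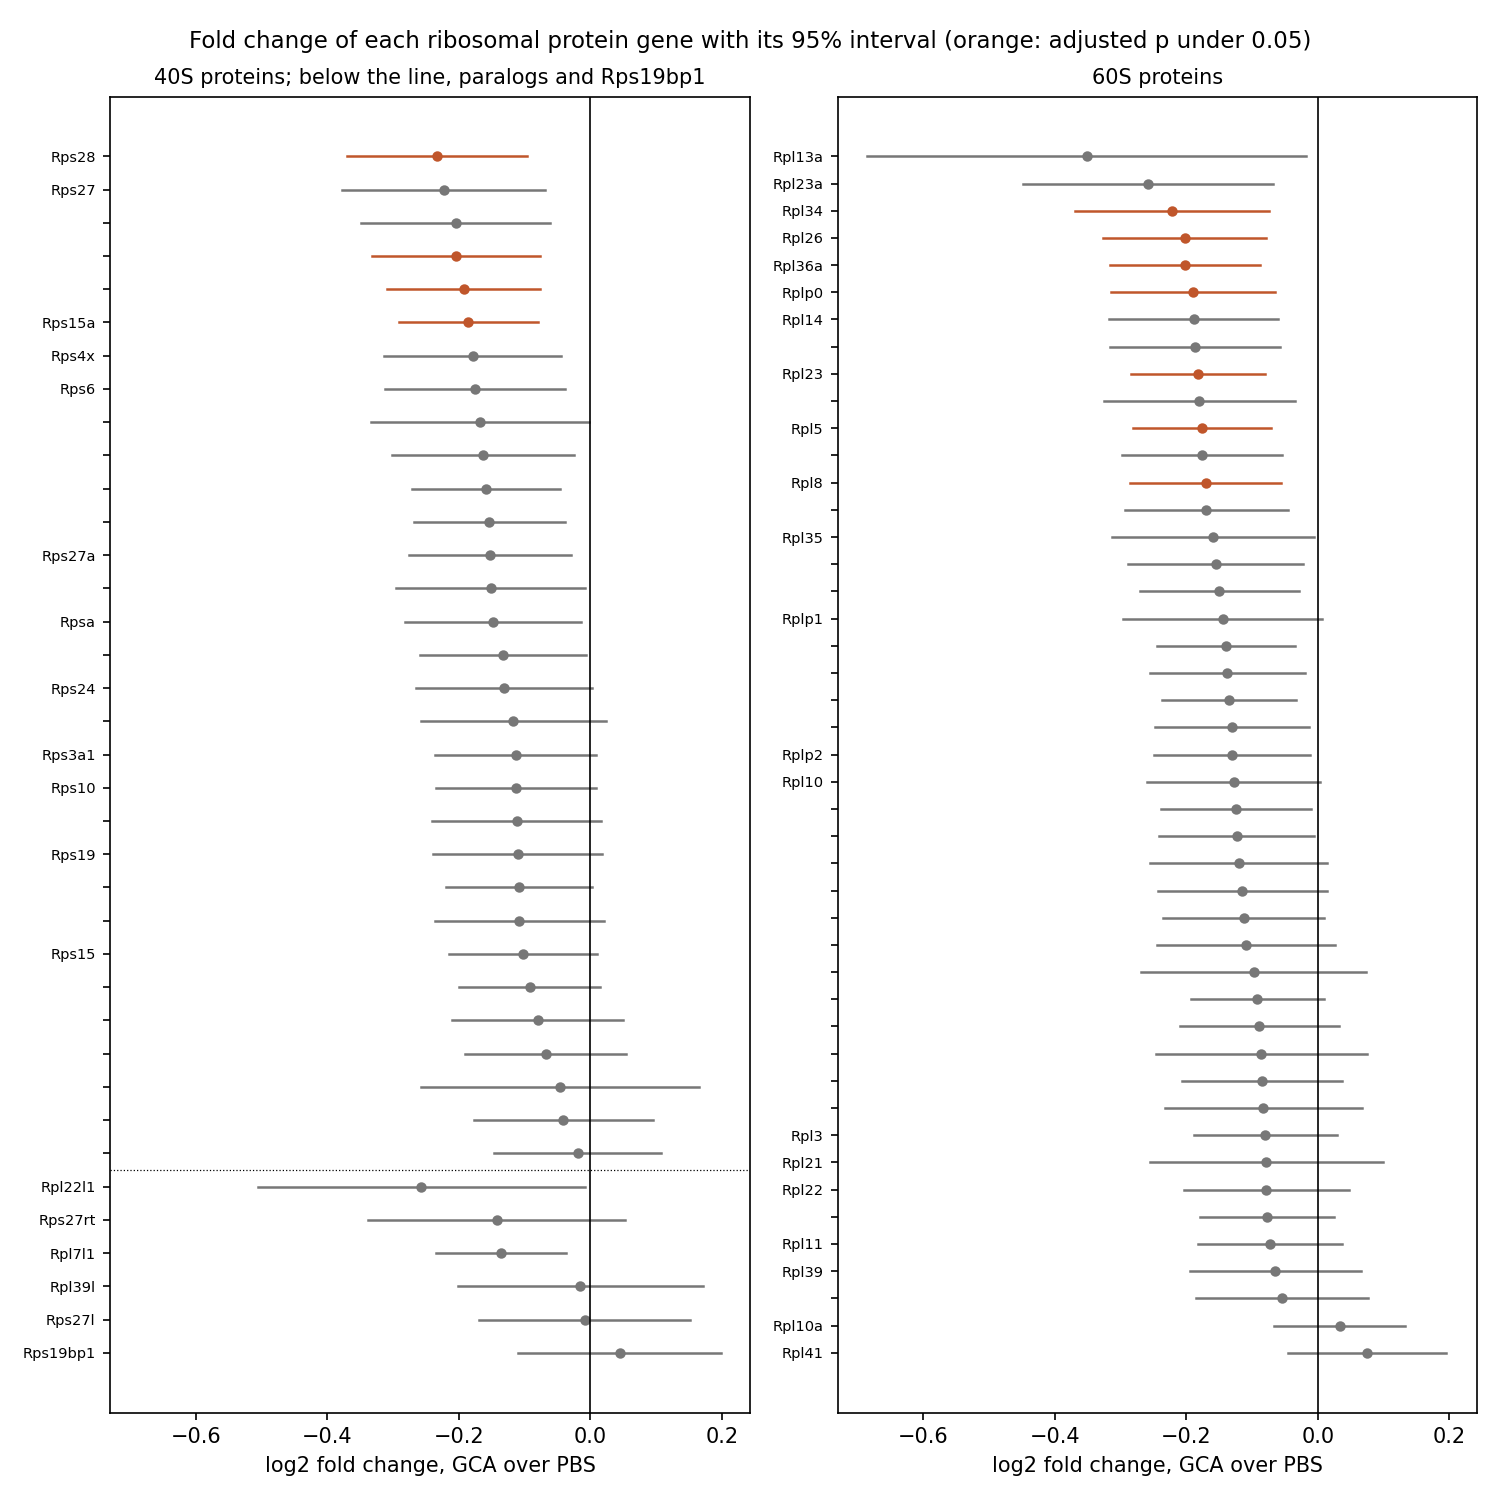
Log2 fold change, GCA over PBS, of each of the 82 tested genes (points) with its 95% confidence interval (lines), for 40S proteins, paralogs and Rps19bp1 on the left and 60S proteins on the right; the genes described by name are labelled. The 11 genes past the threshold (orange) lie between -0.23 (Rps28) and -0.17 (Rpl8), and all 11 intervals overlap one another.

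Of the 40S genes, 4 fell. Rps28, near the mRNA exit of the subunit, had 83.7, 80.8 and 84.1 FPKM with GCA, against 90.6, 97.6 and 105 FPKM with PBS (log2 fold change -0.23, SE 0.059, adjusted p = 0.0305). Its groups did not overlap, and PBS library 1 was the lowest of its group. Rps15a, a core protein bound to the 18S rRNA, had 34.6, 34.8 and 33.7 FPKM with GCA, against 37.6, 39.7 and 40.3 FPKM with PBS (log2 fold change -0.19, SE 0.046, adjusted p = 0.0275), again without overlap and with PBS library 1 the lowest of its group.

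Several 40S genes of known role did not pass. Rps6, the classical substrate of the S6 kinases, had 334, 351 and 341 FPKM with GCA, against 356, 403 and 403 FPKM with PBS (log2 fold change -0.18, SE 0.060, adjusted p = 0.0780). Its groups did not overlap, and PBS libraries 2 and 3 were nearly equal. Rps27, a zinc-finger protein of the 40S subunit, had 74.2, 65.0 and 74.6 FPKM with GCA, against 78.2, 85.4 and 86.1 FPKM with PBS (log2 fold change -0.22, adjusted p = 0.0544). Rps4x, the X-linked Rps4 gene, had a log2 fold change of -0.18 (adjusted p = 0.0695) and Rps27a, made as a fusion with ubiquitin, one of -0.15 (adjusted p = 0.0855). Rpsa, also known as the laminin receptor, stood at -0.15 (adjusted p = 0.118). Rps19, the gene most often mutated in Diamond-Blackfan anaemia, had 56.2, 54.8 and 57.1 FPKM with GCA, against 56.4, 61.2 and 64.3 FPKM with PBS (log2 fold change -0.11, adjusted p = 0.213), and its groups overlapped through PBS library 1. Without that library Rps6 (adjusted p = 0.0215), Rps4x, Rps27a and Rpsa passed, and Rps27 (adjusted p = 0.0547) and Rps19 did not.

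Of the 60S genes, 7 fell. The stalk and the 5S particle, an assembly of Rpl5, Rpl11 and 5S rRNA, are described first. Rplp0, which anchors the stalk on the subunit, had 618, 628 and 612 FPKM with GCA, against 662, 738 and 724 FPKM with PBS (log2 fold change -0.19, SE 0.054, adjusted p = 0.0458). Its groups did not overlap. Rplp1 and Rplp2, the acidic proteins it carries, did not pass: Rplp1 had 1202, 1153 and 1201 FPKM with GCA, against 1192, 1367 and 1382 FPKM with PBS (log2 fold change -0.15, adjusted p = 0.171), and Rplp2 had 104, 103 and 99.7 FPKM with GCA, against 106, 112 and 118 FPKM with PBS (log2 fold change -0.13, adjusted p = 0.12). For Rplp1, PBS library 1 lay among the GCA libraries.

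Rpl5 had 115, 119 and 117 FPKM with GCA, against 127, 136 and 134 FPKM with PBS (log2 fold change -0.18, SE 0.046, adjusted p = 0.0324), again without overlap. Rpl23, which also binds Mdm2, had 189, 190.0 and 190.3 FPKM with GCA, against 207, 219 and 220.5 FPKM with PBS (log2 fold change -0.18, SE 0.044, adjusted p = 0.0258), the smallest p of all members, and its GCA libraries were nearly equal. Its 1 near-identical copy in the genome averaged 343 FPKM, and the fragments of both together had a log2 ratio of -0.19, next to -0.18 for Rpl23 alone. Rpl11, the partner of Rpl5, had 105, 105 and 105 FPKM with GCA, against 105, 113 and 115 FPKM with PBS (log2 fold change -0.073, adjusted p = 0.330). Its PBS library 1 lay among the GCA libraries. Whether Rpl5 and Rpl11 differ in their change was not tested.

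Rpl8, at the peptidyl-transferase centre, had 582, 588 and 603 FPKM with GCA, against 633, 677 and 687 FPKM with PBS (log2 fold change -0.17, SE 0.050, adjusted p = 0.0491). Rpl26, beside the exit tunnel for the nascent chain, had 206, 216 and 215 FPKM with GCA, against 229, 251 and 255 FPKM with PBS (log2 fold change -0.20, SE 0.054, adjusted p = 0.0353). Rpl36a, near the exit site for tRNA, had 55.9, 58.0 and 57.2 FPKM with GCA, against 62.1, 67.5 and 67.7 FPKM with PBS (log2 fold change -0.20, SE 0.049, adjusted p = 0.0262). All 3 had non-overlapping groups. Rpl34 had 55.7, 52.8 and 57.1 FPKM with GCA, against 58.9, 67.8 and 67.3 FPKM with PBS (log2 fold change -0.22, SE 0.064, adjusted p = 0.0473), and PBS library 1 stood closer to the GCA libraries than to the other PBS libraries. Rpl34 held 73.6% of the fragments summed with its 5 near-identical copies. That sum had a log2 ratio of -0.18, next to -0.23 for Rpl34 alone, and was not tested. Rpl14 came next, at 147 ± 3.12 FPKM with GCA and 168 ± 10.7 FPKM with PBS (log2 fold change -0.19, adjusted p = 0.0512), just outside the threshold.

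**Figure D4:**
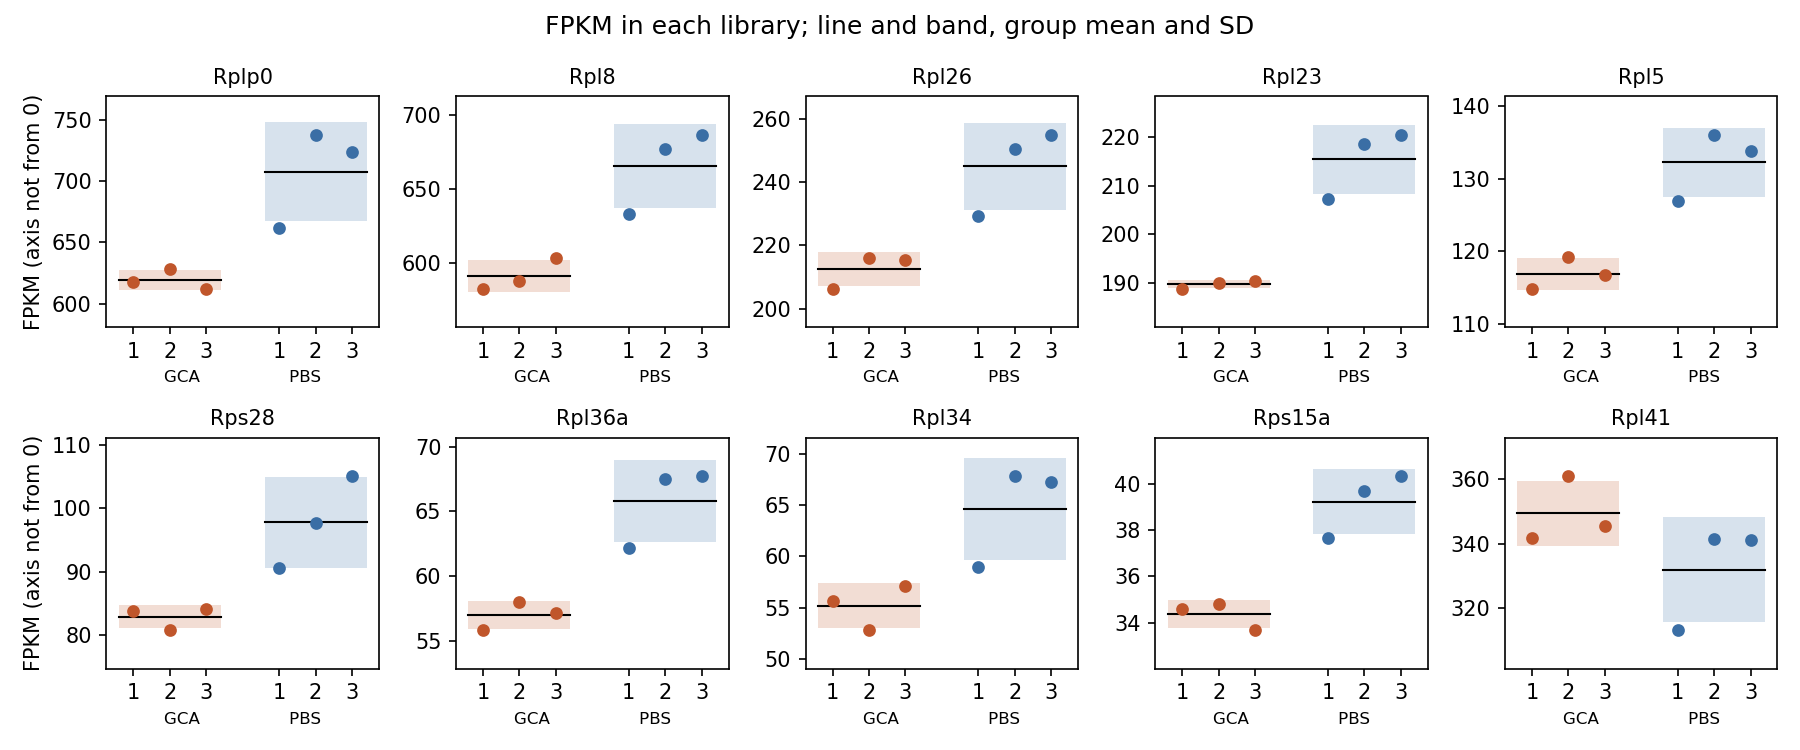
FPKM in each library (points; numbers on the horizontal axis are libraries, GCA then PBS) of 9 of the 11 genes that fell and of Rpl41, with the group mean (line) and SD (band); the vertical axes do not start at 0. In all 9 the PBS library with the lowest value is library 1, and for Rpl41 the GCA libraries lie above the PBS libraries.

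Only 3 of the 82 had a positive log2 fold change, and none of them passed. Rpl41, a very short and basic peptide at the bridge between the subunits, had 342, 361 and 346 FPKM with GCA, against 313, 341 and 341 FPKM with PBS (log2 fold change 0.074, 95% interval -0.046 to 0.19, adjusted p = 0.364). Its lowest GCA value lay just above its highest PBS value, and PBS library 1 was again the lowest. Rpl10a, of the mobile L1 stalk, averaged 169.6 ± 2.21 FPKM with GCA and 166 ± 4.53 FPKM with PBS (log2 fold change 0.033, adjusted p = 0.641). Rps19bp1 averaged 21.3 ± 1.29 FPKM with GCA and 20.7 ± 1.53 FPKM with PBS (log2 fold change 0.045, adjusted p = 0.686). Of the other large-subunit genes of known role, Rpl10, which is added late in assembly near the P site, had a log2 fold change of -0.13 (adjusted p = 0.163), Rpl3, near the peptidyl-transferase centre, one of -0.080 (adjusted p = 0.284), and Rpl39, in the exit tunnel, one of -0.065 (adjusted p = 0.465).

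Paralogs replace or supplement some ribosomal proteins in particular tissues. Of the 7 paralogs listed, 5 passed the filter on low values and none was called. Rps27l, a p53-inducible relative of Rps27, had 152, 138 and 149 FPKM with GCA, against 134, 151 and 157 FPKM with PBS (log2 fold change -0.0086, adjusted p = 0.950). Rps27l made up 67.3%, 67.9% and 66.6% of the summed FPKM of the pair with GCA, against 63.1%, 63.9% and 64.5% with PBS. These shares did not overlap and, unlike the levels, had PBS library 1 on the far side from the GCA libraries; both genes missed the threshold, and the share was not tested.

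Rpl22l1, which Rpl22 represses in mouse, had 5.35, 4.64 and 4.88 FPKM with GCA, against 5.27, 5.84 and 7.39 FPKM with PBS (log2 fold change -0.26, adjusted p = 0.141). It held 9.96% ± 0.656 with GCA and 11.5% ± 1.31 with PBS of the FPKM of Rpl22 and Rpl22l1 together, and the shares overlapped (SD, n = 3 each, for this and the next values). Rpl39l, best known from testis, had a log2 fold change of -0.015 (adjusted p = 0.923) and held 23.8% ± 2.49 with GCA and 23.1% ± 1.74 with PBS of the pair with Rpl39. Rpl7l1 averaged 40.2 ± 0.924 FPKM with GCA and 44.3 ± 0.802 FPKM with PBS (log2 fold change -0.14, adjusted p = 0.0632). Rps27rt, a gene without the introns of Rps27, had the smallest coefficient of variation over the PBS libraries of all members (1.46%), at 43.8 ± 5.46 FPKM with GCA and 48.2 ± 0.706 FPKM with PBS (log2 fold change -0.14, adjusted p = 0.285), and shares near-identical sequence with Rps27, so its reads are uncertain. Rpl22l1 had the largest coefficient of variation over the PBS libraries among the tested members (17.8%). Rpl36al averaged 0.397 ± 0.0244 FPKM with GCA and 0.518 ± 0.245 FPKM with PBS and the muscle paralog Rpl3l 0.0787 ± 0.0388 FPKM with GCA and 0.0669 ± 0.0668 FPKM with PBS, both under the filter.

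Nearly all members have near-identical copies in other annotated genes, and reads can pass between a gene and its copies. The copies were matched by sequence alone, so some are genes of another name, such as Wdr89 for Rplp2. Of the 85 genes, 77 had at least 1 copy in the deposited values at 95% identity over 80% of the coding sequence. When the fragments of each tested gene were summed with those of its copies, 78 of 82 log2 ratios stayed negative, with a median of -0.13 next to -0.13 for the genes alone. In 44 the 3 GCA sums lay below the 3 PBS sums, next to 43 for the genes alone. Of all genes tested, taken without copies, 16.8% had such values. Rpl21 and Rpl23a moved most, to 0.025 and -0.052, next to -0.092 and -0.28 for each alone. The 158 entries named as ribosomal protein pseudogenes summed to 1404, 1458 and 1444 FPKM with GCA, against 1449, 1598 and 1587 FPKM with PBS, and PBS library 1 again lay with the GCA libraries. Of their 59 tested entries 1 rose (against 11.5% of all genes tested) and 3 fell (5.08%, against 6.43%), and 50 were negative.

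Of 3 tested genes that give ribosomal proteins but lie outside the naming rule, 1 fell, 1 rose and 1 did not pass. Of all genes tested, 6.43% fell and 11.5% rose. Rack1, a scaffold on the 40S head, fell, with 134, 143 and 139 FPKM with GCA, against 157, 169.6 and 168 FPKM with PBS (log2 fold change -0.25, SE 0.050, adjusted p = 0.0124), and its groups did not overlap. The call was lost for Rack1 without GCA library 1 or PBS library 2 or PBS library 3 (adjusted p up to 0.0549). Fau, which encodes Rps30 as a fusion, had 347, 347 and 346 FPKM with GCA, against 331, 358 and 379.8 FPKM with PBS (log2 fold change -0.036, adjusted p = 0.708).

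Other mRNAs of the TOP class were lower in part. Of 21 tested, 6 fell (28.6%, against 6.43% of all genes tested) and 1 rose (against 11.5%). Their median log2 fold change was -0.10, with 18 negative. Eef1a1, the elongation factor that brings tRNA to the ribosome, had 2376, 2494 and 2414 FPKM with GCA, against 2747, 2899 and 2961 FPKM with PBS (log2 fold change -0.24, SE 0.052, adjusted p = 0.0174). Eef1b2, its exchange factor, averaged 104 ± 2.56 FPKM with GCA and 125 ± 7.43 FPKM with PBS (log2 fold change -0.26, adjusted p = 0.0141). The call was lost for Eef1a1 without GCA library 1 or GCA library 3 or PBS library 2 or PBS library 3 (adjusted p up to 0.0801), for Eef1b2 without PBS library 2 or PBS library 3 (adjusted p up to 0.0588). Translation factors as a list had 8 of 50 lower (16%, against 6.43% of all genes tested) and 3 higher (against 11.5%), with a median of -0.094. Eif1, which takes part in choosing the start codon, averaged 69.6 ± 3.36 FPKM with GCA and 82.5 ± 0.659 FPKM with PBS (log2 fold change -0.24, adjusted p = 0.0119), and Eif1b, its close relative, averaged 25.5 ± 1.08 FPKM with GCA and 21.1 ± 1.06 FPKM with PBS (log2 fold change 0.26, adjusted p = 0.0147). The call was lost for Eif1b without PBS library 2 or PBS library 3 (adjusted p up to 0.0596).

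Genes that host small nucleolar RNAs in their introns, many of them with TOP starts, were lower in 5 of 12 tested. That is 41.7%, against 6.43% of all genes tested. None rose (against 11.5%), and the median log2 fold change was -0.25. Snhg8 had 5.51, 4.68 and 4.53 FPKM with GCA, against 6.95, 7.10 and 6.64 FPKM with PBS (log2 fold change -0.42, SE 0.073, adjusted p = 0.00711). Snhg12 had 3.93, 5.22 and 4.22 FPKM with GCA, against 6.54, 6.20 and 7.55 FPKM with PBS (log2 fold change -0.51, SE 0.10, adjusted p = 0.0123). Gas5, a host gene that codes for no protein, averaged 10.7 ± 0.723 FPKM with GCA and 13.0 ± 0.477 FPKM with PBS (log2 fold change -0.25, adjusted p = 0.0240). For Snhg8 and Snhg12 PBS library 1 lay with the other PBS libraries, and neither lost its call when any 1 library was left out. The call was lost for Gas5 without GCA library 1 or GCA library 2 or PBS library 2 or PBS library 3 (adjusted p up to 0.0862). Rack1 and Gas5 are on the list of TOP mRNAs as well. The largest log2 fold change of that list, 0.468, was also the largest among the ribosomal protein genes outside the naming rule. Lists that share genes do not give independent counts.

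Of 95 factors that assemble ribosomes, 5 fell (5.26%, against 6.43% of all genes tested) and 1 rose (against 11.5%), with a median of -0.061. Ddx21, a nucleolar helicase, averaged 23.5 ± 0.669 FPKM with GCA and 27.2 ± 0.836 FPKM with PBS (log2 fold change -0.20, adjusted p = 0.0216), and Bop1, of the complex that matures 28S rRNA, averaged 19.9 ± 0.398 FPKM with GCA and 22.8 ± 0.732 FPKM with PBS (log2 fold change -0.19, adjusted p = 0.0277). The call was lost for Ddx21 without GCA library 3 or PBS library 1 or PBS library 2 (adjusted p up to 0.0707), for Bop1 without GCA library 1 or GCA library 3 or PBS library 1 or PBS library 2 or PBS library 3 (adjusted p up to 0.0940), for Znrd1 without GCA library 1 or GCA library 3 or PBS library 1 or PBS library 2 (adjusted p up to 0.0847). Wdr3, a small-subunit assembly factor, rose, with 14.5, 14.0 and 14.9 FPKM with GCA, against 10.1, 11.4 and 10.7 FPKM with PBS (log2 fold change 0.40, SE 0.057, adjusted p = 0.00298). Of 20 genes of RNA polymerase I, which makes the large ribosomal RNA precursor, 1 (Znrd1, log2 fold change 0.24, adjusted p = 0.0248) rose and none fell, with a median of -0.063. Of 22 genes of RNA polymerase III, which makes 5S rRNA and tRNA, none passed, and the median was 0.037. None of 9 tested genes of the MYC network passed, and Myc itself averaged 13.5 ± 1.05 FPKM with GCA and 14.4 ± 1.41 FPKM with PBS (log2 fold change -0.079, adjusted p = 0.532). The counts of these 3 short lists stand beside 11.5% of all genes tested that rose and 6.43% that fell.

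Mitochondrial ribosomal proteins, which serve the organelle's own translation, had few calls, in both directions. Of 76 tested, 3 rose and 2 fell (2.63%), where 11.5% and 6.43% of all genes tested did so. In all, 28 were negative, and the median log2 fold change was 0.022. Mrpl28 had 35.0, 36.9 and 35.8 FPKM with GCA, against 28.6, 30.0 and 29.9 FPKM with PBS (log2 fold change 0.27, SE 0.045, adjusted p = 0.00580), with groups that did not overlap. Mrps6 averaged 6.48 ± 0.469 FPKM with GCA and 8.08 ± 0.371 FPKM with PBS (log2 fold change -0.28, adjusted p = 0.0205). The call was lost for Mrps6 without PBS library 2 or PBS library 3 (adjusted p up to 0.0757). Without PBS library 1 the median of this list was -0.00037, against -0.17 for the cytosolic genes.

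Regulators of TOP translation changed individually. Sesn1, a p53 target that restrains mTORC1, rose, with 27.0, 27.6 and 27.5 FPKM with GCA, against 18.7, 19.4 and 19.7 FPKM with PBS (log2 fold change 0.49, SE 0.044, adjusted p = 0.000522). Ddit4, a stress-induced inhibitor of mTORC1, rose, with 84.9, 113 and 101 FPKM with GCA, against 61.7, 63.8 and 61.7 FPKM with PBS (log2 fold change 0.66, SE 0.094, adjusted p = 0.00385). Eif4ebp1, the translation repressor that mTORC1 inactivates, fell, with 36.5, 37.8 and 36.2 FPKM with GCA, against 44.1, 47.5 and 44.3 FPKM with PBS (log2 fold change -0.29, SE 0.048, adjusted p = 0.00582), and Akt1s1, an inhibitory subunit of mTORC1, averaged 26.7 ± 0.567 FPKM with GCA and 31.6 ± 0.517 FPKM with PBS (log2 fold change -0.24, adjusted p = 0.00847). In these 4 the groups did not overlap, and each kept its call when any 1 library was left out. Of all 18 tested regulators 3 rose and 4 fell (22.2%), where 11.5% and 6.43% of all genes tested did so. Mtor and Larp1, the RNA-binding protein of TOP starts, had log2 fold changes of 0.064 (adjusted p = 0.445) and -0.030 (adjusted p = 0.777). None of 8 tested S6 kinase genes passed; Rps6kb1 averaged 5.79 ± 0.499 FPKM with GCA and 5.82 ± 0.0409 FPKM with PBS (log2 fold change -0.0086, adjusted p = 0.946) and Rps6kb2 7.74 ± 0.252 FPKM with GCA and 6.99 ± 0.333 FPKM with PBS (log2 fold change 0.13, adjusted p = 0.145).

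All 20 cell division genes rose, against 11.5% of all genes tested, with a median log2 fold change of 0.51. They summed to 239 to 251 FPKM with GCA and 159.9 to 175 FPKM with PBS. The part of these genes, of the 9 macrophage markers that rose and of the summed marker levels in the lower ribosomal protein values was not tested.

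**Figure D5:**
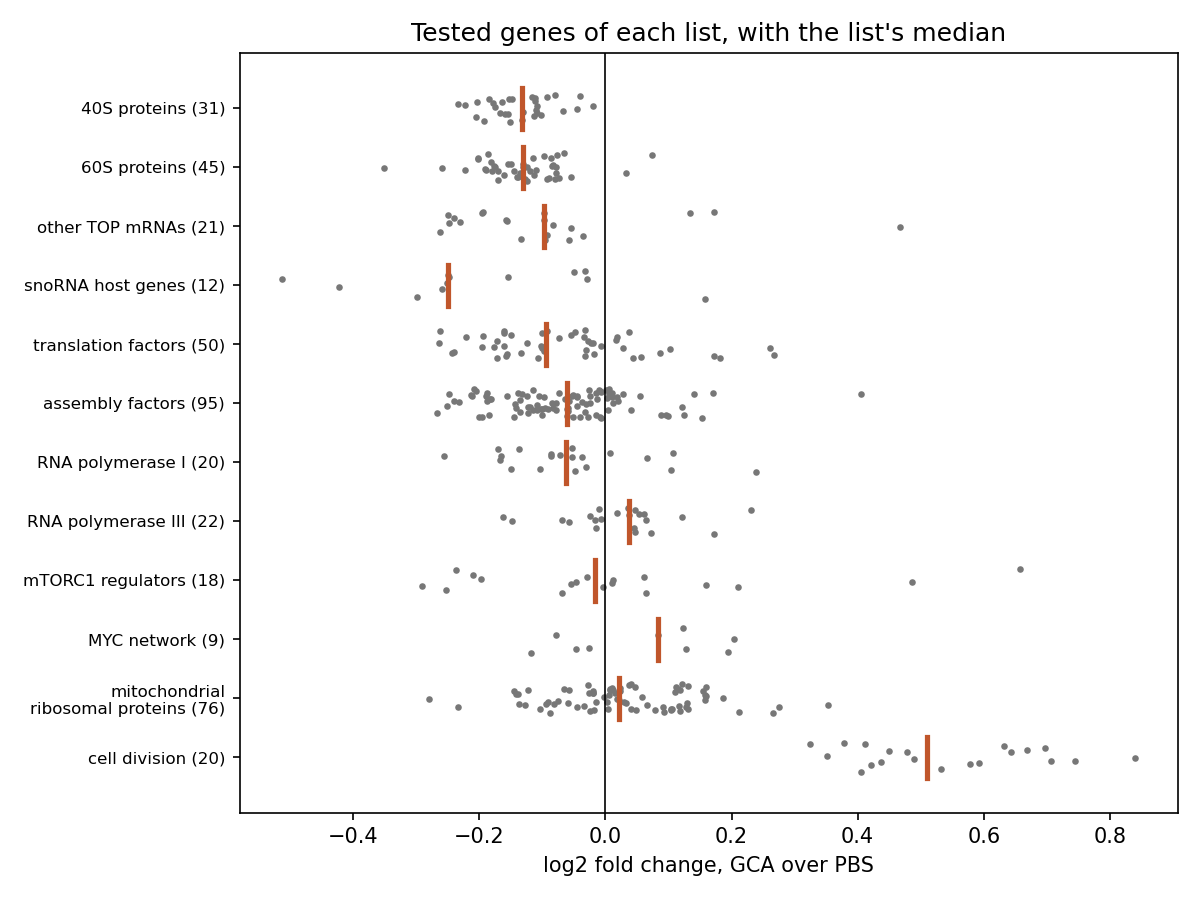
Log2 fold change, GCA over PBS, of each tested gene (points) by list, with the number tested in parentheses and the median of each list (bar). The medians of the 40S and 60S genes are -0.13 and -0.13, that of the mitochondrial ribosomal proteins is 0.022, and the cell division genes lie on the other side at 0.51.

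The log2 fold changes were set beside the annotated starts as a description. Of the 56 tested subunit genes with a RefSeq window, the 22 with a pyrimidine run had a median log2 fold change of -0.14 (2 of them called lower) and the 34 without one a median of -0.13 (6 called lower). Among other genes tested, the 1052 with a run had a median of -0.0079 and the 7695 without one a median of 0.012. The 11 subunit genes with CCGGAAGT had a median of -0.13. Across the 76 tested subunit genes the log2 fold change had a Spearman correlation of 0.14 with the mean FPKM and of 0.017 with the length of the gene model, as a description over genes that share the same 6 libraries.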

How the data were processed

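The FPKM values were computed and deposited by the authors, 1 table per library, from paired-end reads of total RNA. The submitters' processing notes name Bowtie (0.12.2) plus 2 builds, mm8 together with mm9; the role of each and the counter were not stated. FPKM multiplied by the exon length of GENCODE M21 (build GRCm38) and a whole-number library total gave whole fragments (tolerance 0.02) for 90.8 to 91.0% of values, and for 73 of the 85 ribosomal protein genes in all 6 libraries. Of 27263 identifiers, 27204 matched that annotation.

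Log2(FPKM + 1) of the 11984 genes averaging 1 FPKM or more was fitted by treatment alone with limma 3.58.1 (trend, robust; R 4.3.3), two-sided, with Benjamini-Hochberg adjustment and a threshold of 0.05. The fold changes are on that scale and understate changes of low genes. Simulated data (11962 genes) kept the gene means, with the spreads shuffled among genes and independent noise. Of these, 77 of 100 genes changed 1.5-fold and 92 of 100 changed 2-fold were recovered, and 8 unchanged genes were called. Changes as small as those of the ribosomal protein genes, and differences shared within a library, were not simulated. Copies were found with BLAST 2.17.0 at 95% identity over 80% of the coding sequence. The alternatives were the scaling, filter, pseudocount, threshold, moderation, replicate block and each library left out, plus protein-coding genes alone and fitted fragments, both added after seeing the data.

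The members and all gene lists were chosen with earlier results of these data known. Genes that could be named were up to 12 members with the smallest p in each direction, the 5 highest and lowest, those with the largest and smallest coefficient of variation over the PBS libraries, members and regulators of known role, and up to 4 of each other list with the smallest p; those named for overlap or copies, and the marker Lyz2, were chosen after their values were seen. Some genes of these lists are not reported here by name.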

Additional observations from a re-analysis of the deposited data

How the results depend on the processing

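No gene of the naming rule was higher past the threshold under any alternative. The 11 lower calls became 27 after quantile normalization, 19 with a filter at a mean of 5 FPKM, 19 among protein-coding genes alone and 21 with limma-voom on fragments, the last 2 added after seeing the data. Over all genes, 1027, 731, 937 and 1044 were lower in these fits, against 771 in the main fit. The 11 became 1 when values were scaled to the FPKM outside these genes, 3 without trend and robust moderation and 0 without a filter on low values. Of all genes, 535, 710 and 340 were lower there. At thresholds of 0.1 and 0.01 the member counts were 29 and 0, and with each library left out they ran from 0 to 34. Over all genes, 1258 and 246 were lower at these thresholds, and 384 to 768 with each library left out. The median log2 fold change stayed between -0.17 and -0.10 under every alternative. The count over all genes in both directions, 2151, was 1421 scaled to the outside FPKM, 1075 without a filter, 837 at a threshold of 0.01 and 1225 to 2078 with each library left out. Limma-voom called 2666 genes. The cause of these moves was not tested. The ratio of the summed share, GCA over PBS, was 0.912, 0.917 without the most abundant entry and, by fragments with near-identical copies (added after seeing the data), 0.915.

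With the replicate number as a block, 10 members were called, all lower, and 2094 genes were called, 760 of them lower. Same-numbered libraries correlated in their deviations at 0.082, 0.029 and 0.068, under 0.1, so the numbers were not taken as pairs; each library correlated best with its own number, a hint from the data and not from the design. For 30 named members under 17 alternatives, no called fold change reversed, 85 settings lost a call and 18 gained one. The tested members had a median of 5538 fragments per gene and library and a lowest value of 70; with 3 libraries a group, the median SE of a log2 fold change was 0.056.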
